A study of Homo sapiens with 29 samples.

Results

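HEG1 and the genes of the cerebral cavernous malformation (CCM) complex were examined in PC9 cells, an EGFR-mutant lung adenocarcinoma line. The set held 6 of the 35579 genes in the data: the receptor HEG1, the CCM proteins KRIT1, CCM2 and PDCD10, and the transcription factors KLF2 and KLF4. HEG1 was chosen by its measured rise with erlotinib, so its difference between erlotinib and untreated cells is given as a description and was not tested. The other 5 were taken along because they act with HEG1 in endothelial cells. RNA was sequenced from 10 lines: parental PC9 (PAR), its CRISPR derivative lacking AXL (KO), and 8 lines in which KO cells carry a lentiviral AXL that was wild type (WT), kinase dead (KD) or changed from tyrosine to phenylalanine at 1 site (Y634F, Y643F, Y698F, Y726F, Y750F or Y821F). The transduced cells were sorted by GFP. The study's supplement reports that only a minority of the cells in these lines express AXL, so most lack it. Dishes seeded with 300000 cells were left untreated (UT) or kept for 24 h with 1 μM erlotinib, an EGFR kinase inhibitor (E), or with erlotinib plus 300 ng/mL AF154, an antibody that activates AXL (EA). There were 29 libraries, 10 UT, 10 E and 9 EA, with 1 library per line and treatment, and KO with EA was not analysed here.

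HEG1 is a membrane receptor with a long mucin-like outer part and EGF-like repeats, and its short cytoplasmic tail binds KRIT1. KRIT1 also binds the small GTPase RAP1 and joins CCM2, which links it to PDCD10 and to the kinase MEKK3. In endothelium, where loss of KRIT1, CCM2 or PDCD10 causes cavernous malformations, the complex restrains MEKK3, the kinase ERK5 and MEF2 factors, which otherwise raise KLF2 and KLF4.

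Values are TPM (transcripts relative to a fixed library total), which are scaled for transcript length and sum to the same total everywhere, so a level is a share of the RNA and the depth behind it is unknown. Precision therefore comes from the spread between lines, which served as replicates of a treatment although they carry different receptors and whose p-values may measure partly technical spread. AXL RNA in KO was 92.4 TPM without drug and 79.3 TPM in E, and in no other library was it under 217 TPM. The parental line stood apart from the 9 knockout-derived lines in several of the genes described here, and results that rest on it are given with and without it. The epithelial markers EPCAM, KRT8, KRT18, KRT19, CDH1 and CLDN4 summed to between 4612 and 6233 TPM, whereas the 3 lung lineage markers summed to at most 5.51 TPM. Of these NKX2-1 was under 1 TPM in every library, SFTPB reached 1.09 TPM, and NAPSA reached 5.32 TPM and rose with E by 0.50 on the log2 scale (standard error 0.18, limma adjusted p = 0.025).

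Promoter sequence is shown for HEG1, the member that rose, and for KLF2 and KLF4, which fell. The windows are 150 bases each, 5′ to 3′ on the gene's strand, and end 20 bases before the RefSeq start (GRCh38.p14). They lie at chr3:125056018-125056167 (minus strand) for HEG1, chr19:16324656-16324805 (plus strand) for KLF2 and chr9:107489790-107489939 (minus strand) for KLF4, and hold no GENCODE exon. Capitals mark a match to the MEF2 motif.
HEG1: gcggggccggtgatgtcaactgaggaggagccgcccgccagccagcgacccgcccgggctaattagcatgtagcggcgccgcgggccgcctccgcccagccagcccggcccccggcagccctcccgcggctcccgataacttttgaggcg
KLF2: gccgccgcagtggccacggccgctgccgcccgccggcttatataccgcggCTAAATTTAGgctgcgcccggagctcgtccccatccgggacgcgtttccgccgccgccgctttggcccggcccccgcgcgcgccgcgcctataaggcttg
KLF4: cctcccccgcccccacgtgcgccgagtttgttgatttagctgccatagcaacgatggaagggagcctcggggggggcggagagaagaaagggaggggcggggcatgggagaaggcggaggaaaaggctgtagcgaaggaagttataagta
The MEF2 motif reads the same on both strands in KLF2 and begins 120 bases before the start. Of 35116 RefSeq promoters, 2.80% held a MEF2 match in the 250 bases before the start on either strand. The other motifs searched, both strands, were the SRF-bound CArG box (in 1.16% of promoters), the AP-1 site TGANTCA (6.57%), the TEAD site GGAATG (11.9%) and the cAMP response element TGACGTCA (1.65%). None of them was found in the 10 windows that RefSeq lists for the 6 genes, and MEF2 was found in 1 of the 10, that of KLF2. A match is a run of letters and not a measured binding site.

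HEG1 (ENSG00000173706, chromosome 3 from 124965710 to 125055958, minus strand, GENCODE release 29 on GRCh38) was low in every untreated line and high in every line with E. Untreated, it was lowest in Y750F at 9.30 TPM, with a median of 12.5 TPM, and highest in Y643F at 19.0 TPM. With E it ran from 148 TPM in PAR through a median of 192 TPM to 240 TPM in KO. The lowest library with E was thus far above the highest untreated one. Groups that did not overlap were found for 36.5% of the 9085 genes that averaged 10 TPM or more, so a lack of overlap by itself did not set HEG1 apart. The ratio of E to untreated was 10.5 in Y643F, which had the highest untreated level, and 19.9 in KD, with a mean of 15.4 ± 3.0 (SD, n = 10 lines). On the scale of log2(TPM + 1) the difference was 3.82 (standard error 0.07), rank 3 among the 9085 genes ordered by rise.

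**Figure D1:**
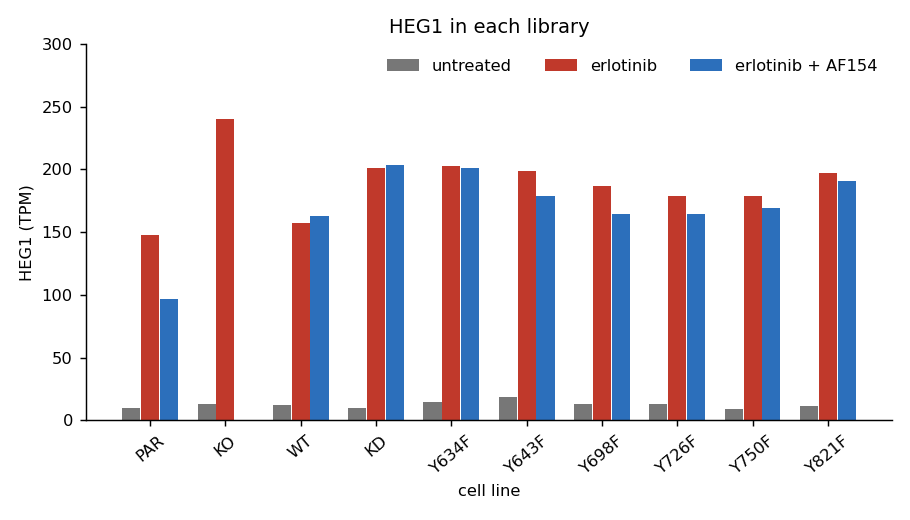
HEG1 in TPM (vertical axis, linear, from 0) in each of the 29 libraries, by cell line and treatment; each bar is 1 library and has no error bar. The untreated bars lie between 9.30 and 19.0 TPM and the erlotinib bars between 148 and 240 TPM, and KO has no bar for erlotinib with AF154.

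The lines without a competent receptor, KO and KD, had 13.4 and 10.1 TPM untreated, inside the range of the other lines. With E, KO had the highest HEG1 of all libraries and KD had 201 TPM, behind KO and Y634F, the latter at 203 TPM. PAR at 148 TPM and WT at 157 TPM, the lines with an unchanged receptor, were the lowest with E. With 1 library for each line these differences between lines have no replicate error and no test. Neighbours in the order were close: Y634F, KD, Y643F and Y821F lay between 197 and 203 TPM with E, and Y726F and Y750F differed by under 1 TPM.

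With the AXL-activating antibody added to E, HEG1 stayed high. It ran from 96.4 TPM in PAR through a median of 169 TPM to 204 TPM in KD, and was between 9.39 (Y643F) and 20.1 times (KD) the untreated level of the same line. Against E alone it was lower in 7 of the 8 lines with a competent receptor (all but KO and KD), and slightly higher in WT, at 163 TPM against 157 TPM. In KD it was 204 TPM against 201 TPM. The mean log2 difference over the 8 competent lines was -0.14 (standard error 0.06, limma adjusted p = 0.203). It missed the threshold of 0.05, which 2.36% of the 9085 genes passed in this comparison, and the E libraries used here had entered the choice of HEG1. The fall was largest in PAR, from 148 to 96.4 TPM, and without PAR the difference was -0.08 (adjusted p = 0.285). Over protein-coding transcripts alone, with PAR, the difference was -0.21 (limma adjusted p = 0.0933).

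The annotated HEG1 transcripts moved in the same direction with E. HEG1-201, the full-length coding transcript of 9156 bases and 17 exons, rose from 6.73 ± 1.34 TPM to 93.7 ± 13.6 TPM (SD, n = 10 lines each). HEG1-202, a coding transcript of 1054 bases and 3 exons from inside the gene, rose from 3.34 ± 0.94 to 59.9 ± 7.73 TPM. HEG1-201 held a mean of 53.9% of the gene's TPM untreated and 49.6% with E, and HEG1-202 held 26.4% and 31.7%, so each held a similar share before and after. The 4 transcripts HEG1-203, HEG1-204, HEG1-205 and HEG1-207 were higher with E in all 10 lines as well, at means of 4.15, 6.35, 13.4 and 10.7 TPM. These values are the authors' assignment of reads to transcripts that overlap.

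**Figure D2:**
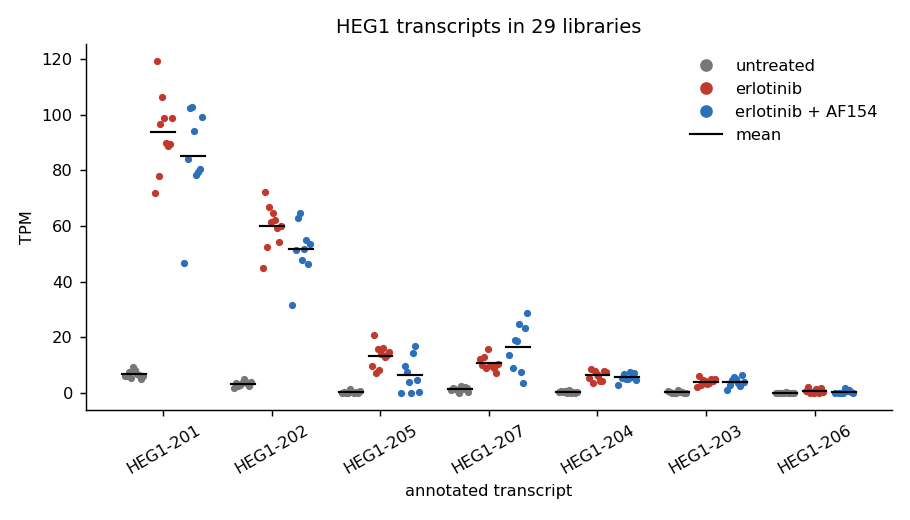
Level in TPM (vertical axis, linear) of the 7 annotated HEG1 transcripts (horizontal axis) in each library; points are libraries coloured by treatment and black lines are means. HEG1-201 and HEG1-202 hold most of the TPM. With AF154 added, HEG1-205 runs from 0 to 17.1 TPM and HEG1-207 from 3.79 to 28.7 TPM.

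HEG1-205, annotated as coding, and HEG1-207, annotated as a processed transcript and not as coding, overlap at the 3′ end of the gene. They were divided differently between E and EA, and also between untreated and E. HEG1-205 was lower with EA in 7 of 9 lines, from a mean of 13.4 TPM over 10 lines with E to 6.51 TPM over 9 lines with EA, and in Y643F it was listed at 0 TPM against 14.2 TPM with E. HEG1-207 was higher with EA in 6 of 9 lines, and in 6 lines HEG1-205 was lower while HEG1-207 was higher. In WT and Y726F the pair moved the opposite way, and in Y698F both were lower. Their sum moved less, with a mean of 24.0 TPM with E and 23.1 TPM with EA, and ranges of 20.03 to 30.9 and 13.8 to 29.1 TPM. As mean shares of the gene's TPM, HEG1-205 held 2.78% untreated, 6.99% with E and 3.81% with EA. HEG1-207 held 11.4%, 5.77% and 9.80%. Untreated, HEG1-205 averaged only 0.387 TPM. No test was run on single transcripts.

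The RNA of the CCM genes did not follow that of HEG1. Over the members other than HEG1, CCM2, KLF2 and KLF4 fell with E, while KRIT1 and PDCD10 did not pass the test. Changes past the threshold were common in this comparison: 79.0% of the genes averaging 10 TPM or more passed, 36.4% upward and 42.6% downward. Among all 14111 genes averaging 1 TPM or more, the fit used for KLF2, 71.8% passed, 35.5% upward and 36.3% downward. The count of 3 changes among 5 genes is a smaller share than that passing in either direction among all genes. Each of the 3 was a fall, a larger share than the one that fell among all genes. With 5 genes, neither is a result about the set.

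KRIT1 (ENSG00000001631, chromosome 7 from 92198969 to 92246166, minus strand) is the scaffold that HEG1 binds. Untreated it was lowest in Y750F at 18.7 TPM, with a median of 21.6 TPM, and highest in PAR at 34.5 TPM. With E it ran from 17.5 TPM in Y750F through a median of 22.8 to 28.9 TPM in PAR. The groups overlapped almost completely, and KRIT1 was higher with E in 6 lines and lower in 4. The log2 difference was 0.04 (standard error 0.06, 95% interval -0.09 to 0.18, limma adjusted p = 0.562). With EA it ran from 21.9 TPM in Y726F through a median of 26.3 to 34.8 TPM in PAR. It was above E in 6 of 8 competent lines, by a log2 difference of 0.20 (standard error 0.07, limma adjusted p = 0.115), with the largest difference in Y750F, from 17.5 to 25.9 TPM. Over protein-coding transcripts alone the difference was 0.15 (limma adjusted p = 0.366).

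CCM2 (ENSG00000136280, chromosome 7 from 44999475 to 45076469, plus strand), the adaptor between KRIT1, PDCD10 and MEKK3, fell in all 10 lines with E. Untreated it lay between 35.9 TPM in KO and 43.4 TPM in Y726F in the 9 knockout-derived lines, and at 78.2 TPM in PAR. With E these lines lay between 22.1 TPM in Y643F and 28.3 TPM in Y634F, and PAR at 44.5 TPM. The groups overlapped only through PAR, whose level with E was above the untreated levels of the other lines. The ratio of E to untreated was 0.61 ± 0.05 (SD, n = 10 lines), and ran from 0.53 in Y643F to 0.71 in Y634F. The log2 difference was -0.69 (standard error 0.04, limma adjusted p = 2.18e-09), and -0.68 without PAR. With EA it lay between 20.9 TPM in Y821F and 30.2 TPM in Y698F, and at 46.5 TPM in PAR. The difference from E was 0.04 (standard error 0.07, 95% interval -0.12 to 0.19, limma adjusted p = 0.792), and without Y698F it was -0.0038.

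PDCD10 (ENSG00000114209, chromosome 3 from 167683298 to 167734939, minus strand), which binds the kinases STK24, STK25 and STK26, was the most abundant CCM gene. Untreated it ran from 66.6 TPM in PAR through a median of 82.0 to 99.4 TPM in WT, and with E from 69.8 TPM in Y698F through a median of 72.2 to 94.7 TPM in Y643F. In the other 9 lines with E it stayed between 69.8 and 76.0 TPM. It was lower with E in 8 of 10 lines, PAR and Y643F being the exceptions, with a log2 difference of -0.12 (standard error 0.06, limma adjusted p = 0.0683). Without PAR the adjusted p was 0.0329, and without Y643F it was 0.00579. With library medians centred the difference was -0.08 (adjusted p = 0.266), and with quantile normalization -0.03 (adjusted p = 0.651). With EA it ran from 69.3 TPM in Y726F through a median of 83.1 to 102 TPM in Y821F, above E in 7 of 8 competent lines. That difference was 0.16 (standard error 0.05, limma adjusted p = 0.0904), and over protein-coding transcripts alone 0.18 (adjusted p = 0.0448). The limma adjusted p was 0.113 with quantile normalization, 0.111 with library medians centred and 0.469 without the line block. With 1 line left out it ran from 0.0536 to 0.186.

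KLF4 (ENSG00000136826, chromosome 9 from 107484852 to 107490482, minus strand), a zinc-finger factor of differentiating epithelium and of endothelium, was lower with E in all 10 lines. Untreated it ran from 26.3 TPM in Y750F through a median of 28.7 to 38.9 TPM in PAR, and with E from 16.8 TPM in Y821F through a median of 17.9 to 19.1 TPM in Y698F. The groups did not overlap, as was found for 36.5% of the genes averaging 10 TPM or more. The levels with E were the tightest of any member, with an SD of 0.71 TPM around a mean of 17.9 TPM (n = 10 lines). The log2 difference was -0.68 (standard error 0.06, limma adjusted p = 2.66e-08). PAR fell most, from 38.9 to 17.9 TPM, a log2 difference of -1.08, and without PAR the difference was -0.64. With EA, KLF4 ran from 14.7 TPM in Y821F through a median of 17.8 to 26.4 TPM in PAR. The difference from E was 0.07 (standard error 0.07, limma adjusted p = 0.63), and without PAR it was 0.0032.

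KLF2 (ENSG00000127528, chromosome 19 from 16324817 to 16327874, plus strand), the related flow-responsive factor of endothelium, was the lowest member, and its mean of 5.67 TPM over the 29 libraries was under the 10 TPM filter. Untreated it ran from 6.62 TPM in PAR through a median of 8.71 to 11.5 TPM in WT. With E it ran from 1.90 TPM in PAR through a median of 4.49 to 6.63 TPM in Y750F, so that the 2 groups met at their edges. It was lower with E in all 10 lines, and the ratio ran from 0.24 in KO to 0.89 in Y750F. In the fit of genes over 1 TPM the log2 difference was -0.95 (standard error 0.13, limma adjusted p = 1.82e-05). With EA it ran from 2.16 TPM in PAR through a median of 3.92 to 5.15 TPM in Y726F, and was lower than with E in 5 of 8 competent lines. That difference was -0.13 (standard error 0.11, 95% interval -0.37 to 0.11, limma adjusted p = 0.593), in a fit where 0.475% of genes passed. It was -0.0645 without Y750F and -0.0695 without WT. In KD it went from 6.42 to 3.38 TPM.

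**Figure D3:**
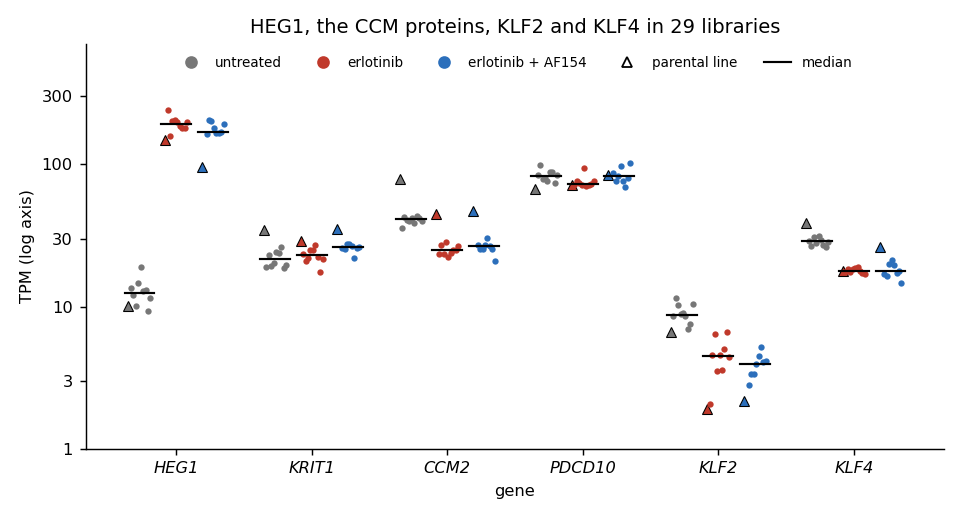
Level in TPM (vertical axis, logarithmic) of the 6 genes (horizontal axis) in each library, coloured by treatment; points are libraries, triangles the parental line and black lines medians. HEG1 goes from a median of 12.5 TPM untreated to 192 TPM with erlotinib, while CCM2, KLF2 and KLF4 lie lower with erlotinib than untreated.

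**Figure D4:**
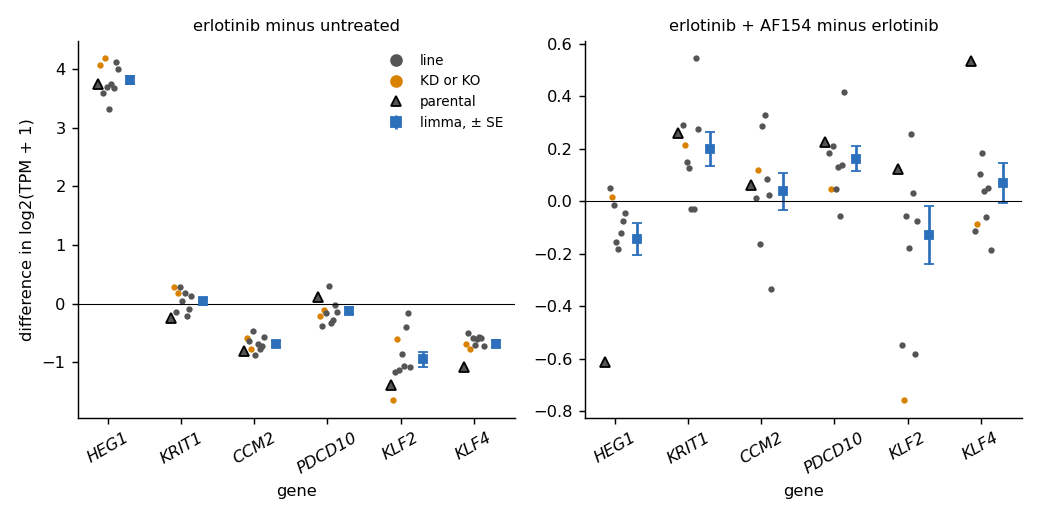
Difference in log2(TPM + 1) (vertical axis) for the 6 genes (horizontal axis), erlotinib minus untreated on the left and AF154 with erlotinib minus erlotinib on the right; points are lines, triangles the parental line, orange points KO or KD, and squares the limma estimate with its standard error. The left and right axes have different ranges. HEG1 lies near 3.82 on the left, and on the right the parental line stands alone at -0.61 for HEG1 and 0.53 for KLF4.

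Because TPM is scaled for length, levels can be set side by side between the genes. Untreated, the order PDCD10, CCM2, KLF4, KRIT1, HEG1, KLF2 held in 8 of 10 lines. In PAR CCM2 was above PDCD10, and in KD KLF2 was above HEG1. The ranges over lines of neighbours in this order overlapped in each case, but for PDCD10 and CCM2, CCM2 and KLF4, and KLF4 and KRIT1 only through PAR. With E, HEG1 was first in all 10 lines, followed by PDCD10, and KLF4 and KLF2 were last. CCM2 was above KRIT1 in 8 lines and below it in the other 2. The ranges of CCM2 and KRIT1, and of KRIT1 and KLF4, overlapped with E, and those of the other neighbours did not. CCM2 was between 1.64 and 2.27 times KRIT1 untreated (median 1.93), between 0.88 and 1.54 times with E (median 1.13) and between 0.80 and 1.34 times with EA (median 0.996). HEG1 was at most 0.78 times KRIT1 untreated and at least 5.12 times KRIT1 with E, a change that the choice of HEG1 already contains.

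The transcripts of the other members were read in the same way. CCM2-201 went from 33.4 to 20.1 TPM (means over 10 lines) and held 76.0% of the gene's TPM untreated and 74.5% with E. KLF4-201 went from 25.8 to 15.3 TPM, and held 87.4% and 85.0%. KLF2-201 went from 7.60 to 2.91 TPM, whereas the short KLF2-202 was at 1.24 and 1.36 TPM. PDCD10-218 went from 56.4 to 50.3 TPM. KRIT1 was spread over 24 annotated transcripts, of which KRIT1-203 went from 4.44 to 3.69 TPM and KRIT1-205 from 1.79 to 3.08 TPM. KRIT1-221, annotated as a retained intron and not as coding, went from 3.26 to 3.08 TPM. It held 14.4% of the gene's TPM untreated and 13.6% with E, so the summed KRIT1 level is partly non-coding.

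Genes near the complex were then read from lists, each described by its counts beside the background shares above. Of the CCM partners, 10 of 13 were over 1 TPM, 2 rose with E, 6 fell and 2 did not pass, with a median log2 difference of -0.24 against -0.04 over all genes over 10 TPM. ITGB1BP1, the integrin-binding partner of KRIT1 also called ICAP1, fell by 0.88 on the log2 scale (standard error 0.04, limma adjusted p = 1.27e-10). STK26 fell by 0.64 and ARHGAP29 by 0.62. RAP1A rose by 0.19, from a mean of 45.5 to 52.2 TPM, and the integrin ITGB1 by 0.14. The more abundant RAP1B, named after its values were seen, fell by 0.38 (limma adjusted p = 2.02e-07), from a mean of 107 to 82.0 TPM. STK24 and STK25, named after their values were seen, fell by 0.60 and had a difference of 0.07 (adjusted p = 0.091). CCM2L, a relative of CCM2 known from endothelium, and the RAP1 effectors RASIP1 and RADIL had means under 1 TPM and were not tested.

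Of 10 measured regulators of RAP1, 3 rose, 5 fell and 2 did not pass. RAPGEF2, an exchange factor that activates RAP1, rose by 1.07 (standard error 0.08, limma adjusted p = 1.68e-08), RAP1GAP, which inactivates it, by 0.33 and RAPGEF1 by 0.24. RAPGEF5 fell by 1.31, SIPA1L1 by 0.59 and RAPGEF3 by 0.41. Activators and inactivators thus stood on both sides.

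Of the 7 genes from MEKK3 to MEF2, 3 rose, 1 fell and 3 did not pass. MAP3K3, which encodes MEKK3, fell by 0.30 (standard error 0.06, limma adjusted p = 0.000284) from a mean of 10.6 to 8.49 TPM. MEF2C rose by 0.41, MAP2K5 by 0.28 and MEF2D by 0.24. The adjusted p of MEF2C was 0.039, and 0.0741 without PAR. MAPK7, which encodes ERK5, had a difference of 0.05 (adjusted p = 0.489).

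The other KLF genes, relatives of KLF2 and KLF4, went both ways. Of 12 measured, 6 rose, 3 fell and 3 did not pass. KLF8 rose most, from a mean of 18.1 to 65.5 TPM, by 1.80 on the log2 scale (standard error 0.05, limma adjusted p = 3.39e-13), followed by KLF9 with 0.82 and KLF11 with 0.79. KLF16 fell by 0.48, KLF6 by 0.41 and KLF10 by 0.23.

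Of 11 genes known as targets of KLF2 or KLF4 in endothelium, 7 were measured, and 4 rose, 2 fell and 1 did not pass. THBD, which encodes thrombomodulin and which KLF2 raises in endothelium, fell from a mean of 14.1 to 5.83 TPM, by 1.16 (standard error 0.08, limma adjusted p = 9.81e-09). NOS3, another gene that KLF2 raises there, rose by 1.92, from 3.10 to 13.0 TPM, ASS1 rose by 1.22 and EDN1, which KLF2 lowers there, by 1.13. ADAMTS9 fell by 0.29. The members of this list that KLF2 is known to raise therefore went both ways.

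Of 9 measured membrane mucins and sialomucins, which like HEG1 carry long glycosylated outer parts, 4 rose, 2 fell and 3 did not pass. MUC20 rose by 2.85, MUC4 by 2.79 and MUC1 by 1.79, whereas PODXL fell by 1.58 and PODXL2 by 0.55.

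The median log2 differences of these lists were -0.15 for the RAP1 regulators, 0.24 from MEKK3 to MEF2, 0.18 for the other KLF genes, 0.90 for the KLF2 or KLF4 targets and 0.18 for the mucins. Over all genes the median was -0.04 above 10 TPM and 0.01 above 1 TPM. Without PAR, an alternative chosen after seeing the data, the counts of genes that rose and fell were 3 and 6 of the CCM partners, 4 and 4 of the RAP1 regulators and 2 and 1 of the genes from MEKK3 to MEF2, and in the other 3 lists the counts were as before. Between EA and E, limma with adjustment passed 0 of the 55 measured genes of the 6 lists, with or without PAR. Among all genes it passed 2.36% above 10 TPM and 0.475% above 1 TPM. Of the 55, 12 had an unadjusted limma p under 0.05. The share of all genes with such a p was not set beside the 12, so they are no result about the lists.

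**Figure D5:**
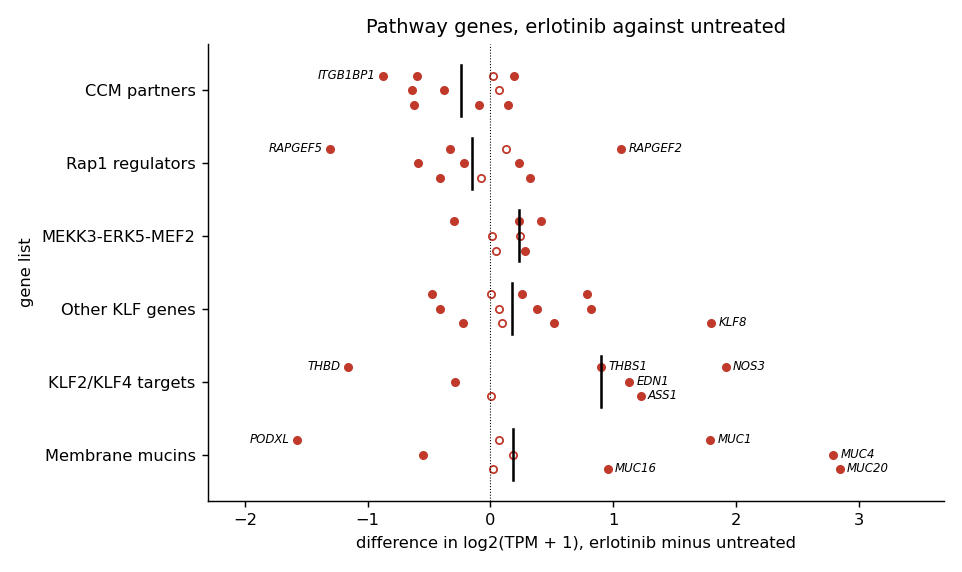
Difference in log2(TPM + 1), erlotinib minus untreated (horizontal axis), for the measured genes of 6 lists (vertical axis); each point is a gene, filled where its limma adjusted p was under 0.05 and open otherwise, and black bars are list medians. Vertical offsets within a list only separate the points. MUC20 at 2.85 and MUC4 at 2.79 lie farthest right and PODXL at -1.58 farthest left.

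HEG1 is known from endothelium and mesothelium, so markers of these and other cells were read. Of 8 endothelial markers, VWF, KDR, TEK, ERG and CLDN5 were under 1 TPM in every library, and the summed level went from between 8.66 and 16.5 TPM untreated to between 4.15 and 11.5 TPM with E. PECAM1 fell by 1.27 and CDH5 rose by 0.53. The 5 mesothelial markers summed to between 64.5 and 86.7 TPM untreated and between 44.7 and 63.1 TPM with E, with WT1 at 0 in every library, CALB2 lower by 2.21 and MSLN higher by 0.71. The 4 fibroblast markers summed to between 16.2 and 36.6 TPM untreated and between 37.9 and 62.6 TPM with E. Most of this was COL1A1, which rose by 1.03, from a mean of 25.0 to 51.5 TPM. COL1A2 was at most 0.338 TPM. COL1A2, PDGFRB and DCN averaged under 1 TPM and were not tested. The 3 leukocyte markers summed to at most 1.49 TPM. All samples were cultures of PC9 or its derivatives and not tissue, so these values are not counts of other cell types. In bulk RNA, fewer PC9 cells with a transcript and less of it per cell cannot be told apart. The part of these markers in the changes above was not tested.

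The genes whose log2(TPM + 1) followed HEG1 most closely over the 29 libraries were NEDD9 (Pearson r = 0.996), LRP10 (0.996), SOX4 (0.996), CDKN2B (0.995) and PBXIP1 (0.995). All 5 had higher means with E than untreated, NEDD9 going from 51.3 to 243 TPM and CDKN2B from 14.0 to 151 TPM, and the libraries share 3 treatments, so these values mostly restate that contrast. After the mean of each treatment was subtracted, the highest values were for NEDD9 (r = 0.889), VSIR (0.880), SMCR8 (0.852), PBXIP1 (0.849) and TTC17 (0.844). Without PAR they were 0.805, 0.792, 0.747, 0.763 and 0.696. NEDD9 is a scaffold protein of focal adhesions. By the same measure with treatment means subtracted, HEG1 had r = -0.64 with CCM2, and -0.27 without PAR, and r = -0.43 with KLF4, and 0.06 without PAR. With KRIT1 it had r = -0.19, and 0.45 without PAR, and with PDCD10 0.14, and 0.06 without PAR, so these values changed with the parental line left out. These are descriptions over libraries of shared lines and treatments, with no test.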

How the data were processed

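RNA from 10 PC9 lines was sequenced after poly(A) selection, with 1 library per line and treatment. The authors deposited TPM per transcript, a length-scaled share with the same total in each library that keeps no depth. The submitters' processing notes list kallisto and GRCh38. All 29 libraries were used. By identifier, version dropped, 169797 of 188753 transcripts were found in GENCODE release 29, giving 35579 genes. Genes averaging 10 TPM (9085, after the minimum in the methods), or 1 TPM for low genes (14111), were analysed as log2(TPM + 1), which understates changes of low genes. E and UT (10 lines) and EA and E (8 lines, without KD and KO) were compared with limma 3.58.1 in R 4.3.3 (trend), the line as a block, since libraries of a line are the same cells, and Benjamini-Hochberg adjustment over all genes tested at 0.05, two-sided. The steps were tested on simulated data. Both comparisons share the E libraries. The 6 genes, the lists and the tests were chosen with earlier results of these data known, and 1 list is not reported here. From each list up to 3 rises and 3 falls past the threshold are named. Settings varied were the pseudocount (0.1), filters, centring, quantile normalization, rescaling without mitochondrial transcripts, protein-coding transcripts only, no block, the KD pair, exact sign flips and leaving out each line. Promoters are those of RefSeq. Python 3.11.15, numpy 2.4.6, pandas 2.3.3 and matplotlib 3.10.9 were used.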

Additional observations from a re-analysis of the deposited data

Results flagged for a closer look

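A library was marked where its distance to the nearest other library was large against the range of its group (Dixon's critical value). Of 30 groups examined, 9 were marked, where chance gives about 1.5, and 8 of the 9 were the parental line. All values are log2(TPM + 1). HEG1 with EA was 6.61 in PAR, with the other 8 lines between 7.36 and 7.68, and its difference between EA and E was -0.61 in PAR, with the other 7 competent lines between -0.18 and 0.05. KRIT1 with EA was 5.16 in PAR, with the others between 4.52 and 4.84. CCM2 in PAR was 6.31 untreated, 5.51 with E and 5.57 with EA, above the others in each group, whose highest values were 5.47, 4.87 and 4.97. KLF4 untreated was 5.32 in PAR, with the others between 4.77 and 5.0, and its difference between E and untreated was -1.08 in PAR, with the others between -0.77 and -0.51. PDCD10 with E was 6.58 in Y643F, with the others between 6.15 and 6.27. Each rests on 1 library per line and treatment, and the causes were not tested.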

How the results depend on the processing

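Between E and untreated, CCM2, KLF2 and KLF4 kept their direction and their call, and KRIT1 stayed short of the threshold, in each alternative run. HEG1 ran from 3.80 to 3.91 over those other than leaving out a line, and from 3.77 to 3.87 over those. PDCD10 passed the threshold over protein-coding transcripts (-0.14, adjusted p = 0.0253) and without PAR or Y643F, and leaving out 1 line gave -0.171 to -0.0942. It was smaller with library medians centred (-0.08, adjusted p = 0.266) and with quantile normalization (-0.03, adjusted p = 0.651). Without the line block no call on these genes changed. HEG1 and KLF2 had no value under a minimum of 10 TPM in every library.

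Between EA and E the number of genes past the threshold, 214, depended on the setting: 67 among genes averaging 1 TPM, 104 with at least 10 TPM in any library, 361 over protein-coding transcripts, 9 without the line block, that is without the pairing by line, 120 with KD included, and 10 (without Y634F) to 188 (without Y726F) with 1 line left out, among them 18 without Y643F, 55 without PAR or Y698F, 76 without Y750F, 94 without Y821F and 131 without WT. Exact sign flips of single genes, unadjusted, gave p = 0.0312 for HEG1 (-0.14) and KRIT1 (0.20) and p = 0.0234 for PDCD10 (0.16), where 0.00781 is the smallest possible. With limma and adjustment none of the 3 passed. The E libraries had entered the choice of HEG1, and without PAR its limma difference was -0.0777. PDCD10 passed over protein-coding transcripts (0.18) and in no other limma setting. CCM2 changed sign without Y698F, to -0.0038, and reached 0.0913 without Y821F. The causes were not tested. The depth behind TPM is unknown, so the precision of low genes such as KLF2 rests on the spread between lines.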
